A study of Ictalurus punctatus with 54 samples.

Results

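In channel catfish gill, 44 transcripts were low early after a *Flavobacterium* challenge given directly after copper sulfate. Their group means 1 and 4 h later were at no more than 0.4 of the control mean. When the challenge came 24 h after copper, they were above 0.67 of it at the same times and above 0.5 at 24 h. The 44 were among 13672 transcripts with a count of at least 10 in at least 6 files, and among 37586 transcripts listed. Levels are given in CPM, each count as a share of its library on a common scale, adjusted between libraries by edgeR's trimmed mean of M-values (TMM), and a ratio to control is the group mean plus 1 over the control mean plus 1. The transcripts were selected on the mean levels of 6 groups (control, Cu0h-1h, Cu0h-4h, Cu24h-1h, Cu24h-4h and Cu24h-24h, described below), so values in those groups are given as a description without a test.

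Gill RNA was sequenced from 54 fish, 6 in each of 9 groups. The Cu0h-1h, Cu0h-4h and Cu0h-24h fish were exposed to copper sulfate, challenged immediately and sampled 1, 4 and 24 h later. The Cu24h-1h, Cu24h-4h and Cu24h-24h fish were exposed, held for 24 h, challenged and sampled at the same times. The paper calls this hold static in its list of groups. Its account of the copper exposure instead has fresh water flowing through the tanks during a 24 h recovery. Cu0h fish were sampled directly after copper and Cu24h fish after the 24 h hold, both uninfected. Control fish had neither copper nor bacteria and were sampled only at 0 h, before any treatment. No untreated fish were sampled later, so elapsed time and handling cannot be told apart from treatment in a ratio to control. The copper sulfate concentration has the value 2.1 in the sources, which give it in 2 different units, mg/mL and mg/L. The bacterium is named *F. columnare* in the labels and *F. covae* in the paper. No uninfected fish were sampled 1 or 4 h after copper, so copper and the challenge cannot be told apart in Cu0h-1h and Cu0h-4h fish. Tanks are not given per fish, and the p-values measure the spread between these fish only. Fish challenged without copper were not analysed here.

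The gill is the respiratory and ion-regulating surface of a fish, and it faces the water with a thin epithelium. Dissolved copper acts on it by disturbing sodium uptake, mucus and the epithelial barrier. Columnaris bacteria attach to the gill and skin of catfish and erode them. In bulk tissue, fewer cells of a type and less RNA per cell cannot be told apart. The transcripts carry Ensembl identifiers, and the reference table used here matched 0 of them to a gene name, so roles, pathways and cell type markers were not described, and the gill label was not checked against markers.

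Library totals were 352013 to 1190864 counts, and several uninfected libraries stood apart. Counts were thinned to the smallest library, and transcripts with a count above 0 were called detected. Cu0h fish 5 and 6 had 17998 and 17940 detected, against 12556 to 13866 in the other Cu0h fish. Cu24h fish 1 and 3 held 11334 and 12927, against 17380 to 18826 in the other Cu24h fish. Cu0h-4h fish 4 and Cu0h-24h fish 6 held 13376 and 13633, against at least 16022 in the rest of those groups. Controls held 14632 to 15487.

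The 44 transcripts were abundant ones. Their control means were 10.2 to 1449 CPM with a median of 97.7 CPM, against a median of 26.9 CPM for the 8120 transcripts whose control mean plus 1 was at least 11, the minimum of the choice. Control means were above 500 CPM for 10 of them and below 50 CPM for 14. Their median coefficient of variation between control fish was 29.4%, against 44.8% for all 8120. The early criteria alone were met by 709 transcripts. Of these, 241 were also above 0.67 in Cu24h-1h fish, 120 also in Cu24h-4h fish, and 44 also above 0.5 in Cu24h-24h fish. The other 665 shared the early fall and missed a criterion after the hold. The thresholds cut through a continuum. The members nearest to them had ratios of 0.398 in Cu0h-1h, just under 0.4 in Cu0h-4h, 0.674 in both Cu24h-1h and Cu24h-4h, and 0.504 in Cu24h-24h fish. The nearest transcripts that failed only that criterion had 0.402, 0.401, 0.665, 0.642 and 0.496 in the same order.

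In the groups that chose them, the transcripts lay far below control early after an immediate challenge. Their summed level was 3503 to 5644 CPM in Cu0h-1h fish (4338 ± 785, SD, n = 6) and 10330 to 15695 CPM in control fish (13203 ± 1853). It was 3383 to 5693 CPM in Cu0h-4h fish (4645 ± 810). No fish of either group reached the lowest control. The median ratio to control was 0.319 in Cu0h-1h fish (0.232 to 0.398) and 0.344 in Cu0h-4h fish (from 0.235 to just under 0.4). For 26 of the 44 all Cu0h-1h fish were below all controls, as they were for 11.5% of the 8120. The number was also 26 in Cu0h-4h fish, against 9.27% of the 8120.

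After the 24 h hold the early samples lay near control, again by choice. The summed level was 9882 to 20523 CPM in Cu24h-1h fish (13343 ± 3711) and 8564 to 14300 CPM in Cu24h-4h fish (11507 ± 2430). Both ranges overlapped the controls. By TMM the median ratios were 0.881 and 0.866, against 0.901 and 0.928 for all 8120. Ratios above 1 were held by 10 of the 44 in Cu24h-1h and 7 in Cu24h-4h fish. None of the 44 had all Cu24h-1h fish below all controls (3.52% of the 8120) or all Cu24h-4h fish below them (4.41%). By 24 h after this later challenge the summed level was 5915 to 9246 CPM (7855 ± 1437), below the lowest control in every fish. As a share of all counts, given below, these fish overlapped the controls. The median ratio in Cu24h-24h fish was 0.587, against 0.825 for all 8120, and 13 of the 44 were above 0.67. The choice required a ratio above 0.5 here. Shares of the 8120 above 0.67 or above 1 were not computed. For 7 of them all Cu24h-24h fish were below all controls, against 12.2% of the 8120.

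**Figure D1:**
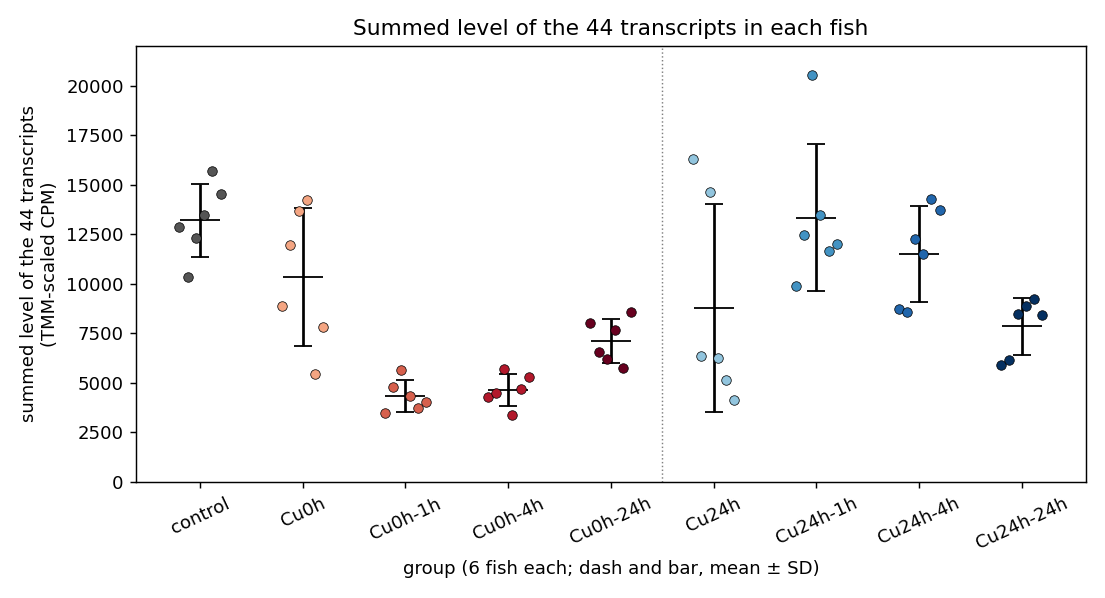
Summed TMM-scaled CPM of the 44 transcripts (vertical axis) in each fish, by group in order of sampling for fish challenged at once (left of the dotted line) and after the hold (right). Points are fish, and dashes and bars are the mean ± SD of 6 fish. Cu0h-1h and Cu0h-4h fish lay between 3383 and 5693 CPM, and 4 of the 6 uninfected Cu24h fish lay between 4114 and 6344 CPM.

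Low summed levels were not confined to fish challenged at once, so the sum did not separate those fish from all others. Abundant transcripts weigh most in this sum, and 10 of the 44 had control means above 500 CPM. Of the uninfected fish after the hold, Cu24h fish 2, 4, 5 and 6 had summed levels of 6344, 6261, 5163 and 4114 CPM, while fish 1 and 3 had 16289 and 14619 CPM. Fish 5 and 6 lay within the range of the Cu0h-1h fish, and by TMM fish 1 lay above every control. Directly after copper, Cu0h fish 5 and 6 had 5467 and 7809 CPM, against 8900 to 14210 CPM in the other Cu0h fish. Each of Cu24h fish 2, 4, 5 and 6 had 10 to 31 of the 44 at or below 0.4 of the control mean. The count was 23 to 39 in Cu0h-1h fish and 0 to 6 in control fish. It was also 9 in Cu0h fish 2 and 8 in Cu24h-1h fish 3, with sums of 11978 and 20523 CPM. Shares of all transcripts were not computed per fish, so these counts cannot be read as particular to the members.

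These low uninfected libraries were the ones with the most transcripts detected. Cu24h fish 2, 4, 5 and 6 and Cu0h fish 5 and 6 each held at least 17380 at equal depth, more than any control, and their 100 most abundant transcripts took 29.6% to 34.4% of counts, against at least 39.8% in controls. Cu0h-1h fish held 16360 to 17290 and Cu24h-1h fish 14871 to 16391. Cu0h-4h fish 4 had the lowest summed level of all 54 fish, 3383 CPM, with few transcripts detected. The part of these library differences in the levels was not tested.

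**Figure D2:**
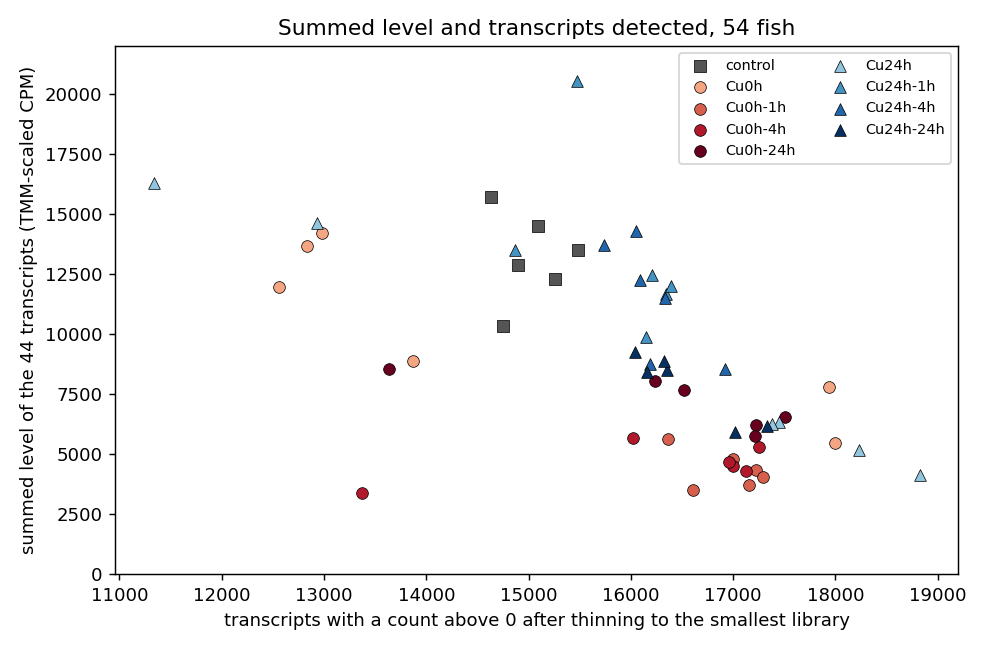
Summed TMM-scaled CPM of the 44 transcripts (vertical axis) against the number of transcripts with a count above 0 after each library was thinned to 352013 counts (horizontal axis), 1 point per fish, with squares for controls, circles for Cu0h groups and triangles for Cu24h groups. Uninfected Cu24h fish lay at both ends, from 11334 transcripts and 16289 CPM in fish 1 to 18826 transcripts and 4114 CPM in fish 6.

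Averaged over fish, the uninfected groups lay between these extremes. The median ratio to control was 0.681 in Cu24h fish and 0.741 in Cu0h fish. At or below 0.4 were 2 of the 44 in each group (4.55%), against 3.10% of the 8120 in Cu24h and 5.94% in Cu0h fish. The 665 others with the early fall had medians of 0.678 in Cu24h and 0.554 in Cu0h fish. All 8120 had medians of 0.921 in Cu24h and 0.895 in Cu0h fish. The control means and the split from the 665 came from the choice, so these ratios are descriptions. None of the 44 had all Cu24h fish below all controls, which held for 0.456% of the 8120, and none had all Cu0h fish below them, which held for 1.82%.

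Uninfected fish after the hold and directly after copper were compared directly, in groups that did not choose the transcripts. Summed levels averaged 8798 ± 5246 CPM in Cu24h fish and 10336 ± 3489 CPM in Cu0h fish, with overlapping ranges. edgeR's quasi-likelihood test called 0 of the 38 members tested higher (background 0.115% of 6969 transcripts) and 0 lower (background 0.0861%), at an FDR below 0.05 and a log2 fold change past 1. At an unadjusted p below 0.05 there were 3 of the 38, against 9.64% of all transcripts. DESeq2 called 0 higher and 0 lower, against 0.33% and 0.474% of all transcripts. The median log2 fold change of the 38 was -0.087 against 0.083 for all transcripts, and the range was -1.42 to 1.12. That median rested on single fish: it was -0.76 without Cu24h fish 1 and 3, -0.50 without Cu24h fish 3 alone, -0.32 without Cu24h fish 1 alone and -0.33 without Cu0h fish 5 and 6. It was positive, at up to 0.060, without any one of Cu24h fish 2, 4, 5 and 6, and between -0.20 and -0.060 without any one Cu0h fish. None of the 44 was without overlap between the groups, which held for 0.714% of the 8120.

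The largest positive fold changes in that comparison belonged to ENSIPUT00000037368 and ENSIPUT00000004902, and neither passed the test. ENSIPUT00000037368 had 15.6 to 135 CPM in Cu24h fish (median 92.9) and 14.1 to 73.5 CPM in Cu0h fish (median 33.9). Its log2 fold change was 1.12 (SE 0.51, edgeR FDR 0.493). ENSIPUT00000004902 had 15.02 to 49.4 CPM in Cu24h fish (median 36.4) and 5.43 to 32.6 CPM in Cu0h fish (median 12.6), a log2 fold change of 1.07 (SE 0.46, edgeR FDR 0.465). Both ranges overlapped. Both transcripts had the only Cu0h ratios to control at or below 0.4 among the 44, at 0.321 and 0.377, in fish sampled before any challenge. In Cu0h-1h fish their ratios were 0.348 and 0.317.

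The 2 transcripts with the deepest fall among those with at least 50 CPM in controls were ENSIPUT00000000887 and ENSIPUT00000019825. ENSIPUT00000000887 had 9.60 to 52.9 CPM in Cu0h-1h fish (median 17.1) and 36.7 to 131 CPM in control fish (median 93.7). In Cu0h-1h only fish 2, at 52.9 CPM, overlapped the controls. Its group mean was 26.7 ± 14.9 CPM in Cu0h-4h, 43.9 ± 15.6 CPM in Cu0h-24h, 68.0 ± 46.8 CPM in Cu24h and 107 ± 24.98 CPM in Cu24h-1h fish. ENSIPUT00000019825 had 21.2 to 83.7 CPM in Cu0h-1h fish (median 47.4) and 110 to 250 CPM in control fish (median 192), without overlap. Its mean stayed at 55.3 ± 9.92 CPM in Cu0h-4h and 67.7 ± 25.6 CPM in Cu0h-24h fish, and was 164 ± 53.6 CPM in Cu24h-1h fish. In Cu24h fish it ranged from 42.6 to 455 CPM, with fish 3 at 455 and the next at 118 CPM.

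A day after an immediate challenge most of the transcripts were still below control. Their ratios were less uniform than at 1 and 4 h, where the choice capped each at 0.4. The choice set no limit in Cu0h-24h fish, so higher or more spread values there cannot be told apart from an effect of that cap. The summed level of Cu0h-24h fish was 5776 to 8565 CPM (7134 ± 1114), below the lowest control in every fish and above the highest Cu0h-4h fish, 5693 CPM. As a share of all counts, given below, Cu0h-24h fish overlapped the controls. Transcripts with near-proportional counts, described below, enter the summed level separately. ENSIPUT00000018244, which leads a set of 4, averaged 316 CPM in Cu0h-4h and 911 CPM in Cu0h-24h fish. The others of the set, ENSIPUT00000018207, ENSIPUT00000018175 and ENSIPUT00000018158, averaged 286, 239 and 198 CPM in Cu0h-4h fish. In Cu0h-24h fish they averaged 811, 671 and 536 CPM. The mean summed level rose from 4645 CPM in Cu0h-4h to 7134 CPM in Cu0h-24h fish, and this set made up most of that rise. Sums per fish without the set were not computed, so separation of these groups without it was not tested. The median ratio of the 44 to control was 0.429 in Cu0h-24h fish, with quartiles of 0.365 and 0.506, against 0.344 in Cu0h-4h fish. At or below 0.4 were 15 of the 44 (34.1%), against 86.5% of the 665 others with the early fall and 18.5% of all 8120. Members had to be above 0.5 in Cu24h-24h fish, where 74.6% of the 665 were at or below 0.4. The gap between the 44 and the 665 therefore cannot be told apart from the choice. For 18 transcripts all Cu0h-24h fish were below all controls, against 11.6% of the 8120. The controls also served in the choice, so these counts are descriptions. Cu24h-24h fish, at 5915 to 9246 CPM, overlapped the Cu0h-24h fish.

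The ratios spread more widely at this time, where the choice set no limit. In Cu0h-24h fish they ran from 0.191 to 1.06, and the median of all 8120 was 0.825. At 0.8 or above were 5 of the 44, and that share of the 8120 was not computed. Of these 5, 4 formed 1 set of near-proportional counts led by ENSIPUT00000018244, with ratios of 0.947 to 0.992, and the fifth was ENSIPUT00000037396, with 1.06. The lowest ratios were 0.191, for a transcript with 109 CPM in controls, and 0.223, for ENSIPUT00000037368.

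**Figure D3:**
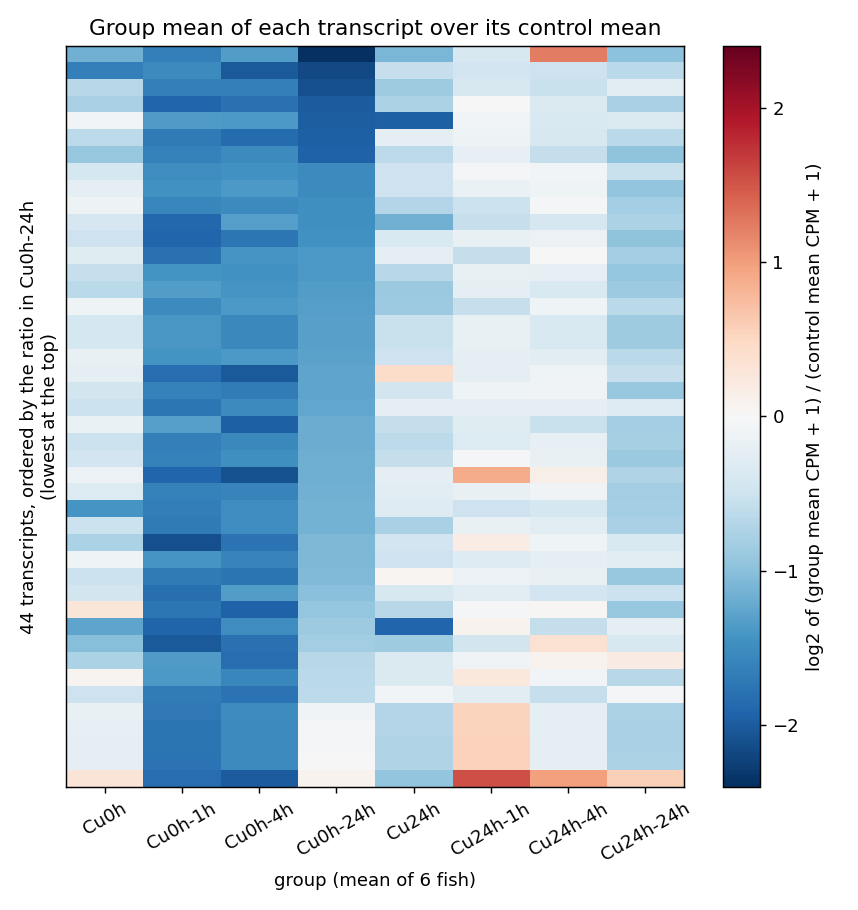
Map of the 44 transcripts (rows, ordered by their ratio in Cu0h-24h fish) by group (columns), coloured by the log2 of the group mean plus 1 over the control mean plus 1, with blue below and red above control. Cu0h-1h and Cu0h-4h are blue throughout, as the choice requires, while Cu0h-24h runs from a ratio of 0.191 in the top row to 1.06 in the bottom row.

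Against fish sampled directly after copper, the members leaned lower 24 h after challenge but their share of lower calls was near that of all transcripts. In Cu0h-24h against Cu0h, the log2 fold change was negative for 33 of the 39 members tested, with a median of -0.82, and negative for 46.4% of all 7574 transcripts, with a median of 0.085. The edgeR test called 3 of the 39 lower (7.69%), against a background of 6.21%, and 0 higher, against 5.35%. At an unadjusted p below 0.05 were 19 of the 39, against 30.9% of all transcripts, and DESeq2 called 0 higher and 6 lower, against 5.78% and 9.27% of all transcripts. None of the 44 was without overlap between the groups, which held for 4.47% of the 8120.

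The 2 members called lower with the largest fold changes, picked after their values were seen, were ENSIPUT00000006371 and ENSIPUT00000026610, both with a control mean above 500 CPM. ENSIPUT00000006371 had 336 to 457 CPM in Cu0h-24h fish (median 407) and 452 to 1373 CPM in Cu0h fish (median 1105). Its log2 fold change was -1.29 (SE 0.32, edgeR FDR 0.0162). The groups overlapped only through Cu0h fish 5, at 452 CPM, with fish 6 next at 462 CPM, and the other Cu0h fish had at least 903 CPM. ENSIPUT00000026610 had 401 to 805 CPM in Cu0h-24h fish (median 529) and 564 to 1839 CPM in Cu0h fish (median 1375), a log2 fold change of -1.11 (SE 0.33, edgeR FDR 0.0375). Again Cu0h fish 5 and 6 were the low ones, at 564 and 577 CPM.

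The count of 3 lower depended on single fish. It was 1 without any one of Cu0h fish 1, 2, 3 and 4 or of Cu0h-24h fish 2, 4 and 5, and 8, 6 and 7 without Cu0h fish 5, Cu0h fish 6 and Cu0h-24h fish 6. The share of all transcripts called in these single-fish fits is not given here. A change in the count therefore cannot be read as particular to the members. Without both Cu0h fish 5 and 6, 17 of 39 were called lower, against 14.8% of all 8025 transcripts tested in that fit. The fit without these fish moved the median of all transcripts by 0.33 on the log2 scale, to 0.42.

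By the group descriptions, Cu0h-24h and Cu24h fish were sampled at the same time after copper, with and without bacteria. Water flow may also have differed, as the paper sets a flow for challenged tanks and calls the hold static in its group list. The paper's survival figure describes 24 h of copper exposure in static water, so time in copper may also have differed. Water flow, time in copper and the challenge cannot be told apart here. This comparison shares its groups with the others, so the values stand side by side and are not independent. In Cu0h-24h against Cu24h the summed level averaged 7134 CPM in Cu0h-24h fish and 8798 CPM in Cu24h fish, and every Cu0h-24h fish lay inside the range of the Cu24h fish. The medians lay the other way, at 7108 CPM in Cu0h-24h and 6302 CPM in Cu24h fish. All transcripts of the near-proportional set of 4 led by ENSIPUT00000018244 enter these sums. That transcript alone had medians of 938 CPM in Cu0h-24h and 387 CPM in Cu24h fish. Medians of the sum without the set were not computed, so this order may rest on the set. Cu24h fish 1 and 3, at 16289 and 14619 CPM, raised the mean of their group. The median log2 fold change was -0.79 over 39 members, 33 of them negative, and -0.062 over all 8688 transcripts. The edgeR test called 4 of the 39 lower (10.3%), against a background of 10.6%, and 1 higher (2.56%), against a background of 11%. At an unadjusted p below 0.05 were 14 of the 39, against 35.9% of all transcripts. None of the 44 was without overlap here either, against 9.37% of the 8120.

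The 1 member called higher was ENSIPUT00000037396, and the largest falls among those called were ENSIPUT00000005607 and ENSIPUT00000018193, all 3 singled out after their values were seen. ENSIPUT00000037396 had 20.9 to 70.4 CPM in Cu0h-24h fish (median 42.8) and 11.5 to 31.9 CPM in Cu24h fish (median 18.5), a log2 fold change of 1.11 (SE 0.40, edgeR FDR 0.0492). Its levels were 10.7 ± 5.64 CPM in Cu0h-1h, 121 ± 67.6 CPM in Cu24h-1h and 40.4 ± 14.0 CPM in control fish. Its ratio to control in Cu24h-1h fish, 2.94, was the highest of the 44.

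ENSIPUT00000005607 had 5.85 to 65.6 CPM in Cu0h-24h fish (median 36.6) and 37.4 to 269 CPM in Cu24h fish (median 80.8), a log2 fold change of -1.84 (SE 0.56, edgeR FDR 0.0234). Cu24h fish 1 and 3, at 223 and 269 CPM, were far above the others. ENSIPUT00000018193 had 5.05 to 18.2 CPM in Cu0h-24h fish (median 13.0) and 8.11 to 138 CPM in Cu24h fish (median 28.8), a log2 fold change of -1.73 (SE 0.57, edgeR FDR 0.036). Its highest Cu24h value, 138 CPM, was fish 1, and without that fish the fold change was -0.92. ENSIPUT00000006371 was called in this comparison too, with a log2 fold change of -1.12 (SE 0.39, edgeR FDR 0.0445). Its values in Cu24h fish 1 and 3 were 1435 and 1477 CPM, against 385 to 606 CPM in the other Cu24h fish and 336 to 457 CPM in Cu0h-24h fish.

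**Figure D4:**
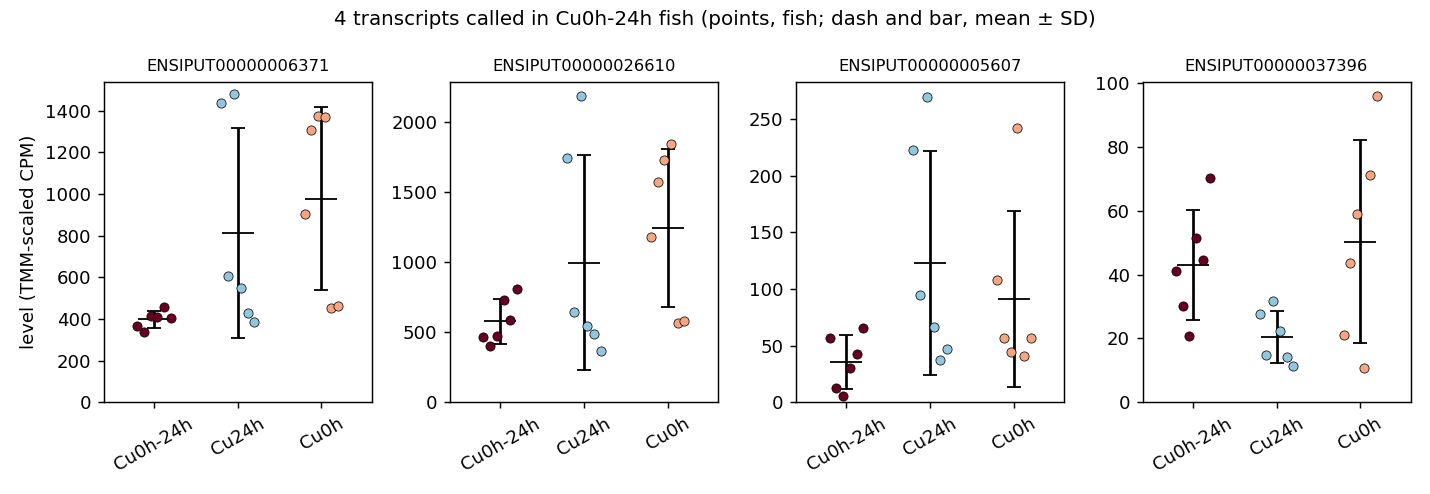
Level in TMM-scaled CPM (vertical axis) of 4 transcripts called in Cu0h-24h fish, in Cu0h-24h, Cu24h and Cu0h fish, with points for fish and dashes and bars for the mean ± SD of 6 fish. In ENSIPUT00000006371 the 6 Cu0h-24h fish lay between 336 and 457 CPM, while Cu24h fish 1 and 3 and Cu0h fish 1 to 4 had at least 903 CPM.

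These calls also rested on single fish. Higher calls numbered 5 without Cu24h fish 1 and 0 without any one of Cu24h fish 2, 4, 5 and 6 or of Cu0h-24h fish 1, 2, 4, 5 and 6. Lower calls numbered 0 without Cu24h fish 3 or Cu0h-24h fish 2, 1 without Cu24h fish 1 or Cu0h-24h fish 1 or 3, and 2 without Cu0h-24h fish 5 or 6. The share of all transcripts called is not given for these single-fish fits either, so the counts cannot be read as particular to the members. Without both Cu24h fish 1 and 3, 5 members were called higher and 1 lower of 40 tested, against 11.5% higher and 11.3% lower of all 10687 transcripts in that fit, and the median log2 fold change was -0.18.

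**Figure D5:**
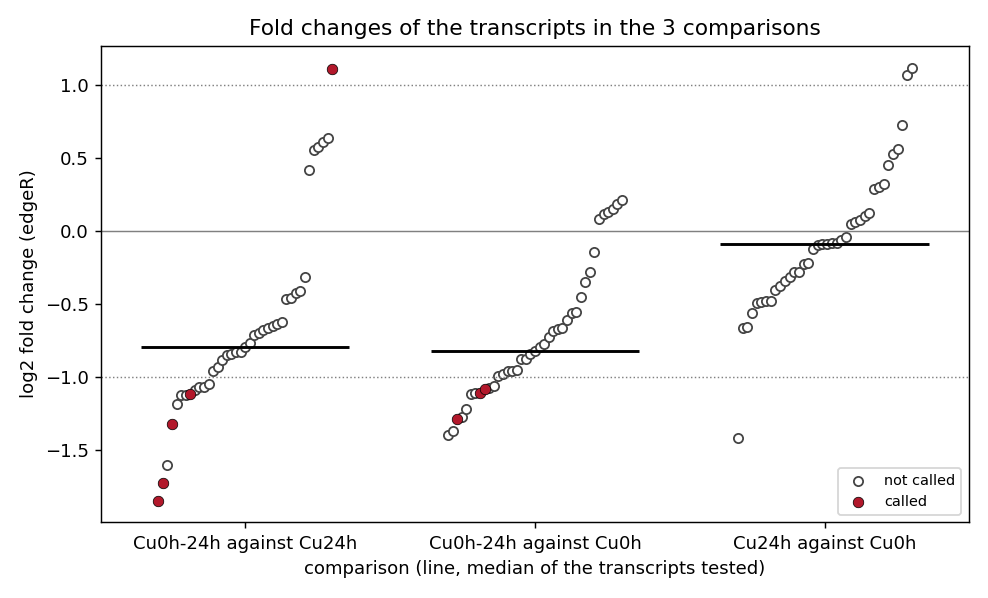
log2 fold changes from edgeR (vertical axis) of the members tested in each of the 3 comparisons (horizontal axis), sorted within each, with filled points for members called and a line at the median. The medians were -0.79 in Cu0h-24h against Cu24h, -0.82 in Cu0h-24h against Cu0h and -0.087 in Cu24h against Cu0h.

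Some of the 44 may not be separate measurements. ENSIPUT00000018244 and 3 others (ENSIPUT00000018207, ENSIPUT00000018175 and ENSIPUT00000018158) had counts that correlated across the 54 fish with a lowest r of 0.999, and together made up 3005 CPM of the summed control level. ENSIPUT00000022561 and ENSIPUT00000022547 had the same count in 52 of the 54 fish. Counting each set once left 40 distinct series. Whether the transcripts of a set share reads was not tested. Any shared reads would have been divided between them by the authors' estimation program, which would make their separate levels uncertain. ENSIPUT00000018244 itself had 143 to 489 CPM in Cu0h-1h fish (median 268) and 650 to 1202 CPM in control fish (median 887), without overlap. In Cu0h-24h fish it had 511 to 1179 CPM (median 938), inside the control range in all fish but fish 5, which was below it. In Cu24h-1h fish it had 421 to 3685 CPM, and fish 3, at 3685 CPM, carried the highest summed level of any library.

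After group means were removed, the median correlation over 946 pairs of transcripts was 0.227 across the 54 fish, which share library composition and depth, and 219 pairs were negative. Transcripts within 1 set are among these pairs, and pairs of other transcripts were not computed.

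The depth of the fall depended on the scaling. TMM factors were 0.941 to 1.29 in Cu0h-1h fish and 0.758 to 0.854 in controls. Scaled by library total alone, the median ratio to control was 0.464 in Cu0h-1h and 0.482 in Cu0h-4h fish. That scaling raised the median ratio of all 8120 by 0.52 and 0.47 on the log2 scale. Relative to that median, the members stood at 0.367 by library total and 0.362 by TMM in Cu0h-1h fish, and at 0.407 and 0.402 in Cu0h-4h fish. The side of control also depended on the scaling after the hold. By library total the members' median ratio was 1.07 in Cu24h-1h and 1.08 in Cu24h-4h fish, and 12 and 15 of the 44 were below 1. The median of all 8120 was then 1.09 and 1.15. As a share of all counts the members took 0.319% to 0.608% in Cu0h-1h, 0.511% to 1.02% in Cu24h and 0.809% to 1.18% in control fish. The overlap of Cu24h with Cu0h-1h fish was thus present without TMM. The share was 0.665% to 0.877% in Cu0h-24h and 0.693% to 0.946% in Cu24h-24h fish. Both ranges overlapped the controls, so the separation of these 2 groups from every control was not present by share. With the choice itself made on library totals, 13 transcripts met it and 3 of them were among the 44.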

How the data were processed

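The authors deposited effective counts, estimated counts per Ensembl transcript rounded to whole numbers, with 1 file per fish. The submitters' notes name Trim Galore 0.5.0, Bowtie2 2.3.4.3, eXpress 1.5.1 and DESeq2 1.24.0, while the paper describes another pipeline, and no source used here names the transcripts' build. Totals were 352013 to 1190864 counts, which limits precision for transcripts near 10 CPM. Files were joined by identifier, and no 2 of 135 within-group pairs agreed within sampling noise (chi-square per transcript at least 5.29).

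Each of 3 comparisons used its 12 libraries in edgeR 4.0.16 (R 4.3.3) with filterByExpr (minimum count 10, minimum total 15), TMM and the quasi-likelihood test, with p-values adjusted by Benjamini-Hochberg over all transcripts tested. Calls needed an FDR below 0.05 and a log2 fold change past 1 in size. Standard errors were approximated from the fold change and F. Alternatives were DESeq2 1.42.0 (size factors and Wald test), no filter, all groups in 1 fit, a replicate block, thinning and leaving out fish. The fits were tested on simulated data.

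The transcripts and tests were chosen with earlier results of these data known. At most 4 transcripts were named by rule, 2 by the smallest Cu0h-1h ratio among those with at least 50 CPM in controls and 2 by the largest positive fold change in Cu24h against Cu0h among those with at least 20 CPM in Cu24h fish.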

Additional observations from a re-analysis of the deposited data

Results flagged for a closer look

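Single fish stood far from the other 5 of their group in 8 of the group values checked, with a gap to the nearest fish past Dixon's 95% limit for 6 values. For normally distributed values, chance alone flags about 5% of groups. The check covered 90 groups, which are not independent of each other. The summed level was 20523 CPM in Cu24h-1h fish 3, with the next fish at 13489 CPM. ENSIPUT00000018244, which was not among the transcripts checked, had 3685 CPM in that same fish (next 1331), so its set contributed to that sum. ENSIPUT00000000887 had 52.9 CPM in Cu0h-1h fish 2 (next 18.9), ENSIPUT00000019825 had 455 CPM in Cu24h fish 3 (next 118), and ENSIPUT00000006371 had 750 CPM in Cu0h-1h fish 3 (next 441). ENSIPUT00000026610 was lowest in Cu0h-4h fish 4, at 176 CPM (next 557), a library with few transcripts detected. ENSIPUT00000005607 had 242 CPM in Cu0h fish 4 (next 108). ENSIPUT00000018193 had 138 CPM in Cu24h fish 1 (next 34.8) and 68.1 CPM in Cu24h-1h fish 4 (next 25.7).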

How the results depend on the processing

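The number of transcripts meeting the choice was 48 with DESeq2 size factors, 51 with group medians, 48 with 0.1 added in place of 1 and 51 after thinning, but 13 by library total, 3 of them shared. Leaving out 1 fish of the 6 choosing groups gave 34 (without Cu0h-4h fish 4) to 57 (without Cu24h-24h fish 1), and 13 of the 44 were in all 36 versions.

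In Cu24h against Cu0h, 1 of 37 members was called higher without Cu0h fish 5 and 6 (8.30% of all transcripts) and 1 of 44 lower with all 9 groups in 1 fit (2.21% of all). In Cu0h-24h against Cu0h the 3 lower calls became 6 with DESeq2's Wald test, 1 without the low-count filter, 1 after thinning and 17 without Cu0h fish 5 and 6, and leaving out 1 fish gave 1 to 8. In Cu0h-24h against Cu24h the 1 higher call became 0 without the filter, 0 after thinning, 0 with the older quasi-likelihood method (added after the data were seen) and 5 without Cu24h fish 1 and 3, and the 4 lower calls became 1 without those 2 fish. Leaving out 1 fish gave 0 to 5 higher and 0 to 6 lower calls. Shares of all transcripts are not given for the fits without 1 fish, without the filter or after thinning. The median log2 fold change of the members there was -0.18 without Cu24h fish 1 and 3. The causes were not tested.

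Directions turned for 3 named transcripts that were not called. In Cu24h against Cu0h, ENSIPUT00000000887 (0.32) had -0.42 without Cu24h fish 1 and 3, and -0.090 to 0.57 without 1 fish. ENSIPUT00000019825 (0.13) had -0.22 with the replicate block, -0.90 without Cu24h fish 1 and 3, -0.070 without Cu0h fish 5 and 6, and -0.72 to 0.32 without 1 fish. In Cu0h-24h against Cu24h, ENSIPUT00000000887 (-0.62) had 0.10 without Cu24h fish 1 and 3. In Cu0h-24h against Cu0h, ENSIPUT00000004902 (0.084) had -0.093 to 0.42 without 1 fish.

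Fish of different groups share replicate numbers but nothing in the labels pairs them. With the number as a replicate block, lower calls were 0 in Cu0h-24h against Cu0h and 2 in Cu0h-24h against Cu24h, higher calls there were 0, and all transcripts called numbered 384 in place of 875, 1238 in place of 1885, and 31 in place of 14 in Cu24h against Cu0h. Same-numbered fish had correlations of deviations from -0.20 to 0.34, above 0.1 in 4 of 6 pairs in Cu24h against Cu0h and in 0 of 6 in the others, and 1, 2 and 1 of 6 fish correlated best with their own number.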
